A study of Mus musculus with 9 samples.

Results

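The proteins of the cytosolic ribosome are encoded by genes whose symbols begin with Rpl for the large, 60S subunit and Rps for the small, 40S subunit. The genes described here are the protein coding rows of the deposited count table with a GENCODE M21 symbol of Rpl or Rps followed by a number, together with Rplp0, Rplp1, Rplp2 and Rpsa, which leaves out the Rps6k kinases and the pseudogene symbols ending in -ps. That pattern matched 102 protein coding rows, of which 10 were Rps6k kinases and 6 were pseudogene symbols, so 86 of 54232 rows remained. By knowledge of the ribosome 46 of the 86 encode standard 60S proteins and 31 standard 40S proteins, and these 77 are called the core genes. The others are 8 paralogs (Rpl3l, Rpl7l1, Rpl10l, Rpl22l1, Rpl36al, Rpl39l, Rps27l, Rps27rt) and Rps19bp1, whose product binds a ribosomal protein without being one. Enough counts for a test were present for 83 members, all 77 core genes among them, and Rpl3l, Rpl10l and Rpl39l were left untested.

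The RNA came from lacrimal glands, which secrete the watery part of tears, of female C57BL/6J mice kept in a 12 h light and dark cycle and fed without restriction. There were 3 libraries at 2 months (titled 8W), 3 at 12 months and 3 at 24 months, and the labels name no allele or treatment for any age. The series title places the study in the lymphoid tissue that forms in old glands. The labels do not state that libraries of an age were taken from different mice. All p-values therefore rest on the variation among these 9 samples, part or all of which may be technical. RNA of whole glands was sequenced in pairs of 100 bp, so fewer cells of a type and less RNA per cell cannot be told apart.

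Each ribosome is built of ribosomal RNA and a full set of ribosomal proteins, which cells make in nearly matched amounts. Many ribosomal protein mRNAs begin with a C followed by a run of pyrimidines, the TOP motif, through which the growth regulator mTOR and the RNA-binding protein LARP1 adjust their translation and stability. Lacrimal acinar cells export large amounts of protein, and their cytoplasm is rich in ribosomes on the endoplasmic reticulum.

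The letters around the annotated start of transcription were searched for such a run. Start sites from RefSeq on GRCm38.p6 were found for 57 of the 77 core genes, with 67 promoters. A C at the annotated start followed by 4 bases that were each C or T was present in 13 of the 57 genes (22.8%), compared with 3.01% of all 27025 genes in the table and 0 of 69 mitochondrial ribosomal protein genes. Within 10 bases before to 15 bases after the start the same 5-base run was present on the gene's strand in 59.6% of the core genes, 34.4% of all genes and 44.9% of the mitochondrial ribosomal protein genes. The windows below run from 15 bases before the start to 15 from the start on, 5′ to 3′ on the strand of the gene, and capitals mark the C-led run at the annotated start. They are shown for 5 core genes named below that have the run, followed by Rps12 and Rpl9, which lie near opposite ends of the range of changes between 24 and 2 months and have no run at that position.
Rpl38, chr11:114668565-114668594, plus strand: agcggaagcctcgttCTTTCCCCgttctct
Rps21, chr2:180257364-180257393, plus strand: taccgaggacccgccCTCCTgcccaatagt
Rplp2, chr7:141447636-141447665, plus strand: tgcgtcagcgtcttcCTTTCgccgccggac
Rps6, chr4:86857353-86857382, minus strand: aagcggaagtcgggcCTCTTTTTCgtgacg
Rps27, chr3:90213634-90213663, minus strand: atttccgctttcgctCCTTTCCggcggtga
Rps12, chr10:23787195-23787224, minus strand: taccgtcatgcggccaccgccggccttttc
Rpl9, chr5:65391417-65391446, minus strand: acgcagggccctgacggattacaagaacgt
The median log2 fold change of the 13 core genes with the run was -0.63 between 24 and 2 months, compared with -0.62 for the 44 with a start site and no run at it. Between 24 and 12 months the values were -0.49 and -0.46. Within 10 bases before to 15 after the start the run was present in 34 of the 57 genes. The 44 therefore include genes with the run nearby, Rps12 among them, and the split cannot separate genes with and without the motif. A match is a description of these letters and shows no use of the motif.

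The count totals lay between 40516863 and 42573877 per library. Between 61.1 and 67.8% of them fell on the 10 genes with the most counts. Levels are therefore given as CPM, counts brought to a common library total, after TMM scaling, which aligns the bulk of the genes between libraries, and the main counts of changed genes are also given after scaling by library totals alone. Against TMM, library totals raised the median log2 fold change of all 14958 tested genes to 0.31 in both comparisons with 2 months, and left it at -0.02 in that of 24 with 12 months. All 8 lacrimal marker genes (Obp1a, Mucl2, Pip and others) had counts in every library, with a sum of 262981 to 404820 CPM. Libraries rich in the salivary gene Bpifa2 (2-month replicate 3, 12-month replicate 2 and 24-month replicate 2, with 8709 to 22857 counts) and in the skeletal muscle gene Acta1 (12-month replicates 1 and 3, with 341 and 985 counts) are treated below as libraries to be left out.

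The core genes together took a smaller share of the RNA at 24 months. They held 2.05, 2.37 and 2.12% of all counts in the 3 libraries of 2 months, 2.28, 2.50 and 2.54% in those of 12 months, and 1.64, 1.86 and 1.87% in those of 24 months. The 24-month libraries were the lowest of the 9 and did not overlap with either younger age. The means were 2.18% ± 0.17 (SD, n = 3), 2.44% ± 0.14 and 1.79% ± 0.13. Without the 10 most abundant genes in the total, the means were 6.47% ± 0.82, 6.63% ± 0.38 and 4.87% ± 0.13. After TMM scaling the sum over the core genes was 21371, 29589 and 24809 CPM in the 2-month libraries, 21802, 21685 and 24613 CPM in those of 12 months, and 17491, 17282 and 15470 CPM in those of 24 months. The order of 2 and 12 months thus depended on the scaling, while 24 months was lowest in each. The ratio of 60S to 40S counts was 1.492 to 1.508 at 2 months, 1.489 to 1.512 at 12 months and 1.507 to 1.574 at 24 months, and the ranges overlapped.

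**Figure D1:**
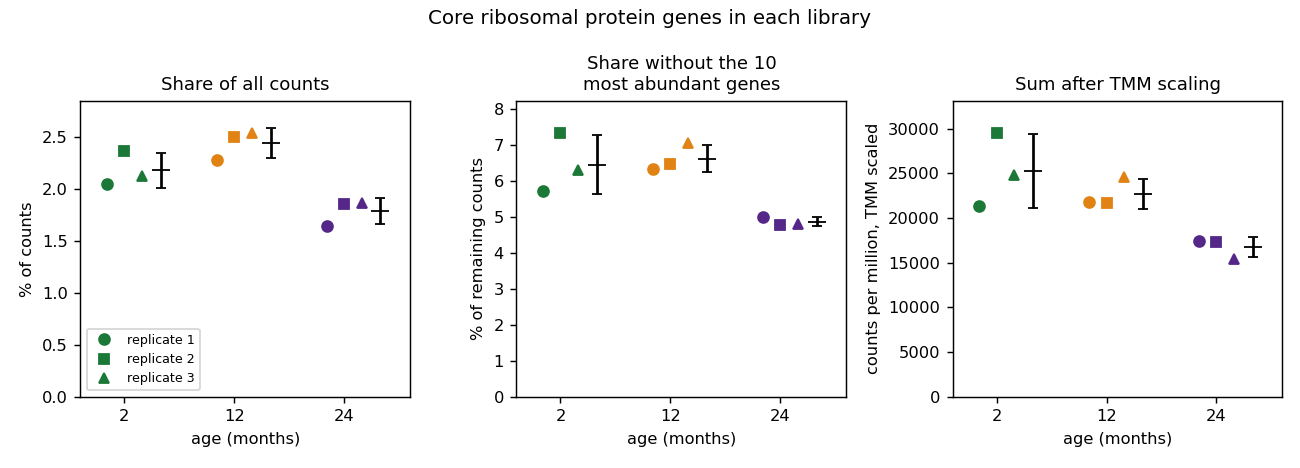
Level of the 77 core ribosomal protein genes in each library by age in months, as a share of all counts (%), as a share of the counts without the 10 most abundant genes (%), and as a sum after TMM scaling (CPM). Symbols are single libraries and bars show the mean ± SD of 3; the 24-month libraries lie lowest in all 3 panels, at 1.64 to 1.87% of all counts.

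Between 24 and 2 months, 70 of the 77 core genes fell and 0 rose (edgeR quasi-likelihood test, adjusted p under 0.05 over all tested genes), where 7.55% of all tested genes were called lower and 9.81% higher. The median log2 fold change of the core genes was -0.63, a level 1.54-fold lower, compared with 0.01 for all tested genes, and all 77 values were negative, from -1.02 for Rpl36 to -0.26 for Rpl9. In 76 of the 77 the 3 libraries of 24 months all lay below the 3 of 2 months, where 16.6% of all tested genes did so. Of the 1421 other genes averaging 36.0 CPM or more, 34.6% did so. The 60S and 40S genes had medians of -0.62 and -0.63, with 40 of 46 and 30 of 31 lower. With library totals in place of TMM, 19 of 77 were called lower (1.28% of all tested genes) and 0 higher (17.5%), the median was -0.32, and 64 of 77 had no overlap (4.19%), so the size and number of the decreases depended on the scaling. The 19 genes, all among the 70, were Rpl12, Rpl17, Rpl26, Rpl28, Rpl36, Rpl36a, Rpl37, Rpl37a, Rpl38, Rpl41, Rplp1 and Rplp2 of the 60S subunit and Rps2, Rps12, Rps16, Rps18, Rps20, Rps21 and Rps27a of the 40S subunit. At an unadjusted p under 0.05, 0 core genes were higher under either scaling, and DESeq2 and limma voom called 75 lower each and 0 higher.

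These calls varied with single libraries. Of the 70, 43 kept the call in each of the 9 refits that left out 1 library, while 43 core genes were called without 2-month replicate 2, the library with the highest core sum, and 44 without 24-month replicate 3. Without the 3 libraries rich in Bpifa2, 4 core genes were called lower, with a median of -0.65. The number of genes called lower among all tested genes fell from 1130 to 141 in that refit, which has 2 libraries per age.

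**Figure D2:**
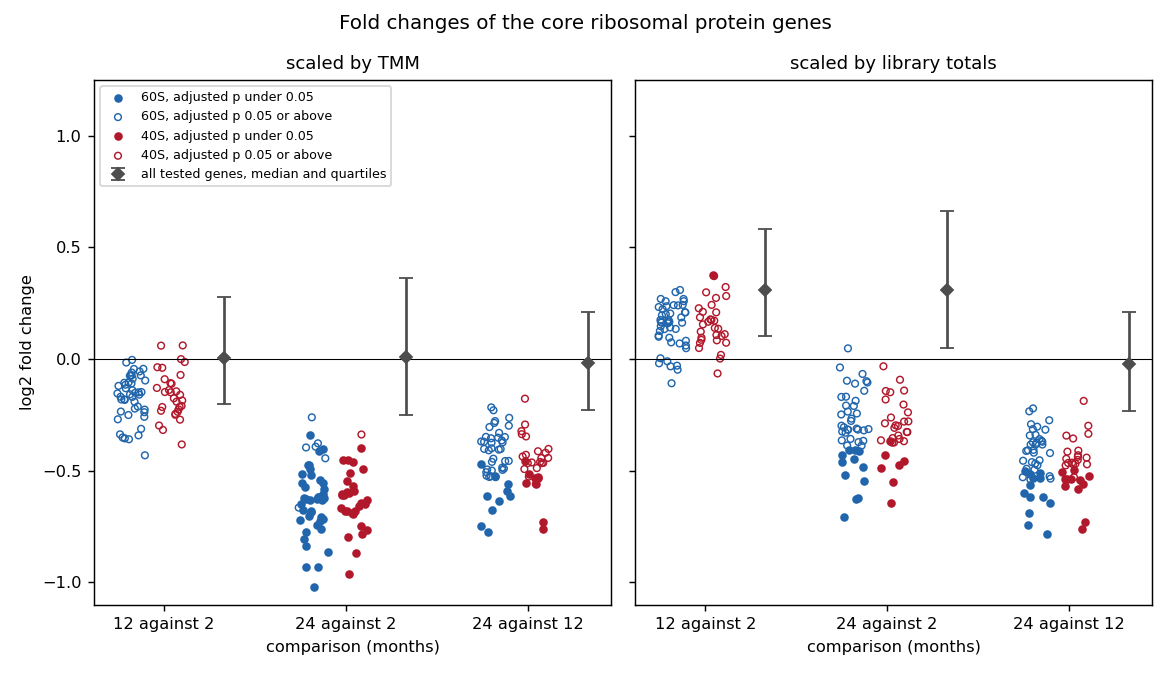
Log2 fold change of each core gene in the comparisons of 12 against 2, 24 against 2 and 24 against 12 months, scaled by TMM (left) and by library totals (right). Each circle is a gene (blue 60S, red 40S, filled where the adjusted p is under 0.05) and grey diamonds with bars give the median and quartiles of all tested genes; under TMM the core medians are -0.16, -0.63 and -0.46.

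The other cell types of the gland changed over the same ages. Between 24 and 2 months 9 of 10 B cell, 8 of 8 T cell, 8 of 8 macrophage, 4 of 6 plasma cell and 8 of 8 adipocyte markers rose, by the same test. Among all tested genes 9.81% were called higher. The marker counts were the same under library totals, where 17.5% of all tested genes were called higher. The summed B cell markers were 0.523 to 0.679 CPM at 2 months, 21.2 to 187 CPM at 12 months and 17.4 to 31.2 CPM at 24 months, and the macrophage markers 65.1 to 95.9, 190.1 to 254 and 258 to 366 CPM. The T cell markers were 1.06 to 1.84, 7.95 to 32.2 and 9.87 to 20.3 CPM, the plasma cell markers 198 to 205, 187 to 293 and 296 to 324 CPM, and the adipocyte markers 1.499 to 2.09, 10.9 to 37.9 and 10.8 to 31.5 CPM. Most of the plasma cell sum at 2 months was Derl3, with 6183 to 7336 counts, and 7509 to 9943 at 24 months. Sdc1 had 398 to 562 and 485 to 637 counts at these ages. Jchain had 23 to 646 and 2919 to 5561, Mzb1 1 to 9 and 153 to 199, Pou2af1 0 to 7 and 201 to 293, and Tnfrsf17 0 to 3 and 11 to 41. No marker of the B cell, T cell, macrophage or plasma cell lists was at 0 in all libraries of an age, and 1 of the 8 adipocyte markers, Lep, was at 0 in the 2-month libraries. The B cell gene Pax5 had 0 to 2 counts in each 2-month library. Their part in the change of the ribosomal protein genes was not tested. Of the lacrimal markers 0 of 8 were called (1 higher at an unadjusted p under 0.05), with a median log2 fold change of -0.08, and with library totals 1 was called higher.

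The lateral stalk of the 60S subunit, which recruits the elongation factors, is formed by Rplp0, Rplp1 and Rplp2, with Rpl12 at its base. Rpl12 (ENSMUSG00000038900, chr2:32961559-32965345) measured 398, 536 and 473 CPM in the 2-month libraries, 358, 399.6 and 418 in those of 12 months and 265, 243 and 229 in those of 24 months. Each 24-month library was below every other library, and the gene fell between 24 and 2 months (log2 fold change -0.93, SE 0.13, adjusted p = 0.00123 by edgeR), also with library totals (adjusted p = 0.00524). Rplp2 measured 203, 297 and 229.6 CPM in the 2-month libraries, 224, 212 and 241 in those of 12 months and 146, 155 and 141 in those of 24 months, and Rplp1 743, 1053 and 832 CPM in the 2-month libraries, 663, 651 and 802 in those of 12 months and 575, 534 and 492 in those of 24 months. Both fell, with log2 fold changes of -0.72 and -0.71 (adjusted p = 0.00522 and 0.00975 by edgeR), and no 24-month value reached a 2-month value. Rplp0 measured 936, 1116 and 984 CPM in the 2-month libraries, 918, 891 and 1011 in those of 12 months and 874, 762 and 676 in those of 24 months; its groups did not overlap between 24 and 2 months, but the change of -0.39 did not pass the test (adjusted p = 0.0728). The value of Rplp0, whose product anchors the dimers of Rplp1 and Rplp2, thus lay closer to 0 than theirs, and the difference was not tested.

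Rpl5 and Rpl11 bind the 5S ribosomal RNA and, when free of ribosomes, the p53 regulator Mdm2. Rpl11 measured 246, 343 and 291 CPM in the 2-month libraries, 243, 235 and 269 in those of 12 months and 206, 204 and 176 in those of 24 months. The 24-month libraries were the lowest 3 of the 9, and the gene fell by 0.58 on the log2 scale between 24 and 2 months (adjusted p = 0.0129 by edgeR, and 0.0543 without 2-month replicate 2 and 0.0509 without 24-month replicate 3). Rpl5 measured 289, 363 and 310.0 CPM in the 2-month libraries, 313, 306 and 340.3 in those of 12 months and 258, 256 and 210.0 in those of 24 months, again with the 24-month libraries lowest and those of 2 and 12 months overlapping. Its change was -0.41, with an adjusted p of 0.0448 that was 0.0387 without 2-month replicate 1 and 0.0517 to 0.156 without any other single library. With library totals neither passed (adjusted p = 0.102 and 0.492).

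The tunnel through which the new protein leaves the 60S subunit is lined by Rpl4 and Rpl17 and surrounded at its exit by Rpl19, Rpl23a, Rpl26, Rpl31, Rpl35 and Rpl39. Of these 8 genes 7 fell between 24 and 2 months, with a median log2 fold change of -0.64 over the 8, and with library totals 2 did. This was near the whole family, where 70 of 77 core genes fell, with a median of -0.63, and 19 with library totals. Rpl26 measured 278, 422 and 326 CPM in the 2-month libraries, 279, 272 and 311 in those of 12 months and 206, 210.3 and 183 in those of 24 months, with 2-month replicate 2 the highest library, and its change was -0.78 (adjusted p = 0.00546 by edgeR). Rpl17 measured 491, 722 and 648 CPM in the 2-month libraries, 537, 570.0 and 644 in those of 12 months and 378, 405 and 344 in those of 24 months, and its change was -0.72 (adjusted p = 0.00877). These 2 are the ones that also passed with library totals. Rpl4 changed by -0.40 ± 0.14 (SE) and did not pass (adjusted p = 0.0723). Rpl23a changed by -0.34 (adjusted p = 0.0294 by edgeR), and lost its call without 2-month replicate 2 or 3 or 24-month replicate 2 or 3 (0.0862 to 0.104), as did Rpl19 without the same libraries (0.0626 to 0.117).

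Rpl3, Rpl8 and Rpl10 reach toward the centre that joins amino acids, and Rpl10 is among the last proteins to be added to the 60S subunit. Rpl3 measured 314, 386 and 305 CPM in the 2-month libraries, 300.1, 313 and 344 in those of 12 months and 238, 233 and 221 in those of 24 months. The 24-month libraries were the lowest 3, and the gene fell (log2 fold change -0.54, SE 0.12, adjusted p = 0.0113 by edgeR). Rpl10 measured 589.7, 822 and 682 CPM in the 2-month libraries, 662, 603 and 725 in those of 12 months and 569, 515 and 454 in those of 24 months, and Rpl8 413, 533 and 464 CPM in the 2-month libraries, 401, 415 and 457 in those of 12 months and 367, 364 and 355 in those of 24 months. Neither passed the test (adjusted p = 0.0621 and 0.0536), although no 24-month library of either reached the lowest 2-month library. With library totals, none of the 3 passed in this comparison (adjusted p = 0.188 to 0.718).

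On the 40S subunit, Rps2 and Rps3 form the entry of the mRNA channel, Rps15 and Rps23 reach into the decoding centre, and Rpsa and Rps26 lie near the exit of the channel. Of these 6 genes 5 fell between 24 and 2 months, with a median of -0.66 over the 6, again near the 70 of 77 and -0.63 of all core genes. Rps2 measured 382, 519 and 413 CPM in the 2-month libraries, 322, 332 and 354 in those of 12 months and 268, 243 and 251 in those of 24 months, so that all 3 ages were apart, and fell (log2 fold change -0.78, SE 0.13, adjusted p = 0.00276 by edgeR), also with library totals (adjusted p = 0.0201), where it alone of the 6 passed. Its neighbour Rps3 measured 341, 456 and 394 CPM in the 2-month libraries, 362, 336 and 367 in those of 12 months and 337, 312 and 293 in those of 24 months; the highest 24-month library lay just below the lowest 2-month library and above 12-month replicate 2, and the change of -0.34 did not pass (adjusted p = 0.0899). Rps15 fell by 0.68 on the log2 scale and Rps26 by 0.66, the second without a call when 2-month replicate 2 was left out (adjusted p = 0.0516). Rps23 fell by 0.65 and Rpsa by 0.49 (adjusted p = 0.0177 and 0.0283 by edgeR). Their calls were lost without 2-month replicate 2 (0.078 and 0.103) and without 24-month replicate 3 (0.0579 and 0.0869), and that of Rpsa also without 2-month replicate 3 or 24-month replicate 2 (0.0595 and 0.0622).

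Rps27a is made as a fusion to ubiquitin, which is cut off, while Rps27 is a separate protein of the 40S subunit. Rps27a measured 179, 244 and 198 CPM in the 2-month libraries, 187, 172 and 201 in those of 12 months and 128, 139.8 and 119 in those of 24 months, and fell between 24 and 2 months (log2 fold change -0.68, SE 0.13, adjusted p = 0.00541 by edgeR), also with library totals (adjusted p = 0.0487). Rps27 measured 146, 223 and 203 CPM in the 2-month libraries, 187, 186 and 198 in those of 12 months and 136, 147 and 132 in those of 24 months, and was the core gene whose libraries of 24 and 2 months overlapped. Its change of -0.46 passed (adjusted p = 0.0422), and in the refits without 1 library it did so only without 2-month replicate 1 (0.00596; 0.0591 to 0.162 in the other 8).

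The largest decreases between 24 and 2 months were those of Rpl36, Rps12, Rpl38, Rpl12 and Rps21. Rpl36 (ENSMUSG00000057863, chr17:56613416-56614243) measured 83.6, 132 and 111 CPM in the 2-month libraries, 81.4, 77.0 and 84.1 in those of 12 months and 57.4, 51.1 and 52.4 in those of 24 months, and its level was 2.03-fold lower at 24 months (log2 fold change -1.02, SE 0.14, adjusted p = 0.00101 by edgeR). Rps12 (ENSMUSG00000061983, chr10:23785183-23787275), a protein of the beak of the 40S head, measured 301, 439 and 349.6 CPM in the 2-month libraries, 294, 286 and 348 in those of 12 months and 183, 195 and 181 in those of 24 months, a level 1.95-fold lower (adjusted p = 0.00168). In both genes the libraries of 2 months were spread widely, with replicate 2 highest, and those of 24 months were close together.

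Rpl38 (ENSMUSG00000057322, chr11:114668524-114672331), which is required in mouse embryos for the translation of Hox mRNAs, measured 95.3, 139.8 and 126 CPM in the 2-month libraries, 87.7, 109 and 126 in those of 12 months and 65.2, 65.4 and 58.6 in those of 24 months. Rps21 (ENSMUSG00000039001, chr2:180257377-180258445) measured 148, 203 and 189.9 CPM in the 2-month libraries, 137, 168 and 197 in those of 12 months and 95.3, 103 and 98.3 in those of 24 months. In both genes 12-month replicate 3 was near the level of 2 months, 12-month replicate 1 was lower, and all libraries of 24 months lay below both ages. Their changes between 24 and 2 months were -0.93 and -0.87 (adjusted p = 0.00287 and 0.00318 by edgeR). These 4 genes and Rpl12 also passed with library totals, with adjusted p from 0.00346 for Rpl36 to 0.0279 for Rps21.

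At the other end, the change was smallest for Rpl9, Rps3 and Rpl23a. Rpl9 (ENSMUSG00000047215, chr5:65388364-65391444) measured 246, 319.6 and 279 CPM in the 2-month libraries, 263, 255 and 301 in those of 12 months and 241, 239 and 225 in those of 24 months, a change of -0.26 with an adjusted p of 0.168, and with library totals the value was 0.05, the only one of the 77 above 0. The 7 core genes that did not pass were Rpl4, Rpl8, Rpl9, Rpl10, Rpl24, Rplp0 and Rps3, with adjusted p from 0.0536 to 0.265. A p that misses the threshold does not show that these genes were level.

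**Figure D3:**
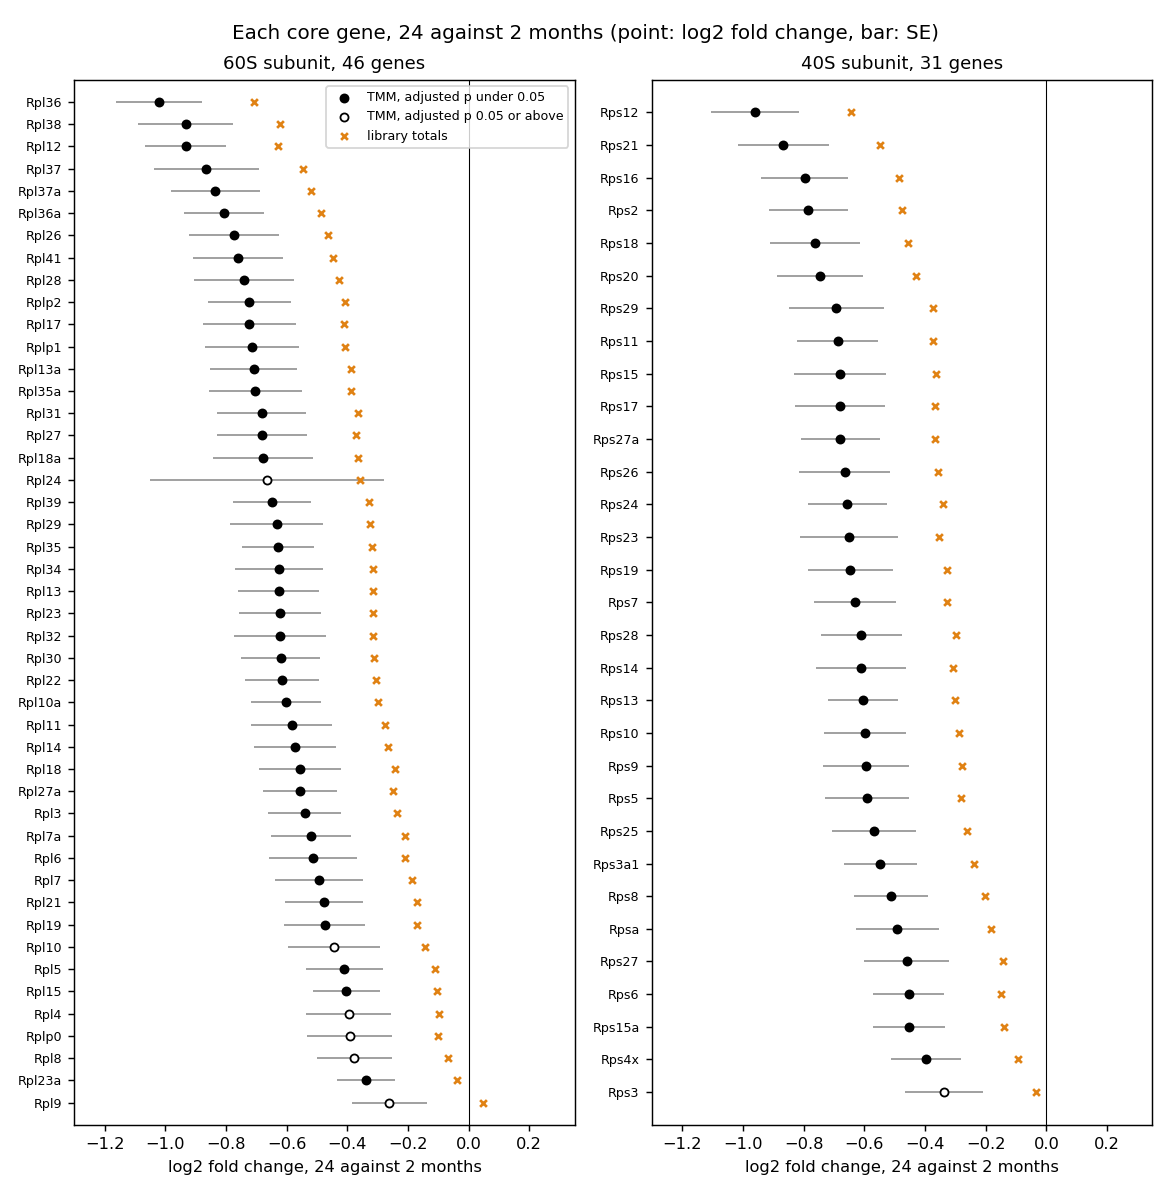
Log2 fold change between 24 and 2 months of each of the 46 60S (left) and 31 40S (right) core genes, in order of the value. Points and bars are the TMM value and its SE (filled where the adjusted p is under 0.05) and crosses the value with library totals; under TMM every point lies below 0, from Rpl36 at -1.02 to Rpl9 at -0.26.

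**Figure D4:**
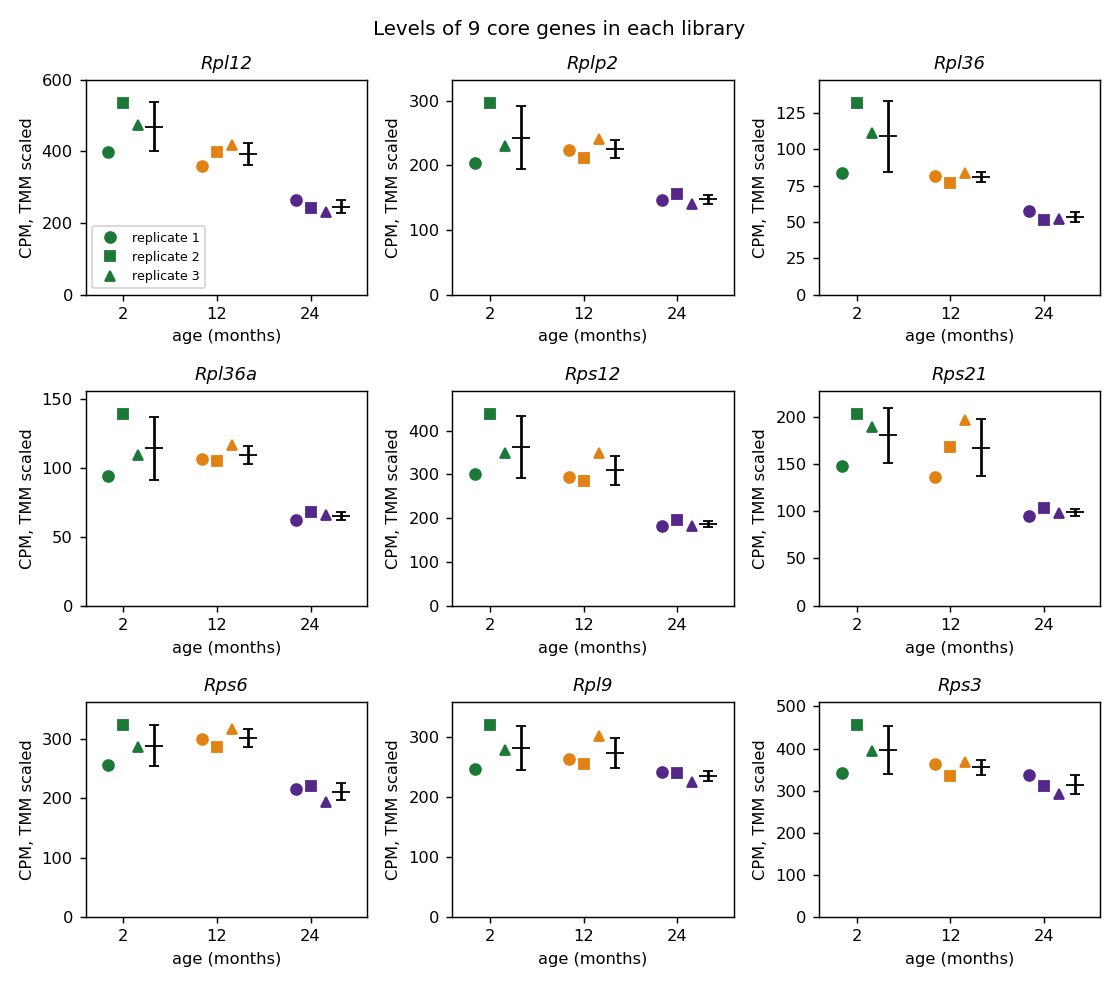
TMM-scaled CPM of 9 core genes in each library at 2, 12 and 24 months, with the mean ± SD of 3 libraries beside them. The first 7 genes and Rpl9 have all 24-month libraries below all others, while those of Rps3 overlap with 12 months. The values of Rpl9 and Rps3 at 24 months lie close to those of the younger ages.

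Between 12 and 2 months 0 core genes were called higher and 0 lower, where 5.4% of all tested genes were called higher and 2.52% lower (edgeR, TMM). At an unadjusted p under 0.05 there were 0 higher and 6 lower. DESeq2 called 0 higher and 2 lower, and limma voom called 0 in either direction. The median log2 fold change was -0.16 with TMM, 75 of 77 values being negative, and 0.16 with library totals, 70 being positive, so that the direction of the family between these ages turned with the scaling. With TMM the median also moved with single libraries: it was -0.03, with 49 of 77 values negative, without 2-month replicate 2, and -0.27, with 76 negative, without 2-month replicate 1. With library totals 1 core gene was called higher (10.8% of all tested genes) and 0 lower (0.535%). That gene was Rps6 (ENSMUSG00000028495, chr4:86854660-86857412), the 40S protein phosphorylated by the S6 kinases downstream of mTOR. Rps6 measured 255, 324 and 287 CPM in the 2-month libraries, 301, 286 and 317 in those of 12 months and 216, 221 and 195 in those of 24 months, and its change from 2 to 12 months was 0.37 with library totals (adjusted p = 0.0462 by edgeR) and 0.06 with TMM (adjusted p = 0.814). Rps4x followed, with 0.37 (adjusted p = 0.0502) and 0.06. The lowest values with TMM were those of Rpl36 (-0.43), Rps2 (-0.38) and Rpl13a (-0.36), with adjusted p of 0.084, 0.0951 and 0.15.

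Between 24 and 12 months 20 of the 77 core genes fell and 0 rose, where 1.6% of all tested genes were called lower and 2.79% higher (edgeR, TMM). The median log2 fold change was -0.46, a level 1.38-fold lower, compared with -0.02 for all tested genes, and all 77 values were negative. In 75 of 77 no 24-month library reached a 12-month library, where 12.6% of all tested genes and 19.1% of the 1421 other abundant genes were so placed. The median hardly differed between the scalings, while the number of calls did: with library totals the median was -0.47, 25 of 77 were called lower (0.923% of all tested genes) and 0 higher (1.35%), and 75 of 77 had no overlap (10.4%). With TMM computed without the 10 most abundant genes 13 were called lower, and with RLE scaling 16. Of the genes called lower 17 were the same under both scalings, and all 20 called with TMM were also called between 24 and 2 months. The comparisons of 24 with 2 and with 12 months share the 24-month libraries, so their values are not independent.

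The 20 genes were 10 of the 60S subunit (Rpl3, Rpl12, Rpl17, Rpl22, Rpl30, Rpl36, Rpl36a, Rpl37a, Rpl38, Rplp2) and 10 of the 40S subunit (Rps3a1, Rps4x, Rps6, Rps9, Rps12, Rps13, Rps20, Rps21, Rps24, Rps27a). Rpl36a (ENSMUSG00000079435, chrX:134585654-134588062), a 60S protein near the exit site of transfer RNA, measured 94.0, 139 and 109 CPM in the 2-month libraries, 107, 105 and 117 in those of 12 months and 62.1, 68.2 and 65.5 in those of 24 months, with the older 2 ages well apart and 2 and 12 months overlapping. Its change was -0.75 (SE 0.13, adjusted p = 0.00804 by edgeR), and it was the 1 gene of the 20 called in each refit without a single library. Rpl38 changed by -0.77, Rps21 by -0.76, Rps12 by -0.73 and Rpl12 by -0.67 (adjusted p = 0.0143 to 0.0162 by edgeR). Without 12-month replicate 3 the adjusted p of these 4 was 0.0604, 0.0537, 0.0637 and 0.0604. Rpl38 also lost its call without 12-month replicate 2 (0.0551) and 24-month replicate 3 (0.0609), and Rpl12 without 12-month replicate 2 (0.0548) and 24-month replicates 2 (0.0558) and 3 (0.0511). The smallest changes were those of Rps3 (-0.18), Rpl9 (-0.22) and Rpl8 (-0.23), which did not pass.

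The number of calls between 24 and 12 months moved with every group. Without 12-month replicates 1, 2 and 3 in turn it was 6, 3 and 1, and without the 24-month replicates 6, 4 and 3. Without the 2-month replicates it was 30, 37 and 9. Those libraries are not compared here and enter through the filter, the scaling and the spread. Without the 3 Bpifa2-rich libraries it was 0 by edgeR, with 47 lower at an unadjusted p under 0.05. All 77 values were negative in that refit, with a median of -0.50. Leaving out the 2 Acta1-rich libraries kept only replicate 2 at 12 months, itself rich in Bpifa2. All 77 values were again negative, with a median of -0.38, and calls from a lone 12-month library are not given. In this comparison 2 of 4 tested skeletal muscle markers fell, their sum being 2.68 to 62.1 CPM at 12 months and 2.06 to 2.44 CPM at 24 months, and 6 of 10 B cell markers fell (4 with library totals). Among all tested genes 1.6% were called lower, and 0.923% with library totals. Of the salivary markers 0 of 4 tested were called (0 at an unadjusted p under 0.05), their sum being 2.07 to 379 CPM at 12 months and 1.03 to 252 CPM at 24 months. The part of these cells in the result was not tested. With all 9 libraries DESeq2 called 58 core genes lower and limma voom with sample weights 31.

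Over the 3 ages together 62 of the 77 core genes and 64 of the 83 tested members were called, where 17% of all tested genes were (edgeR, TMM). With library totals 41 core genes were called, where 16.9% of all tested genes were. The smallest adjusted p over the ages was 0.00224 for Rpl36, followed by 0.00246 for Rpl12.

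The core genes were measured at very different levels per length. Per kilobase of the principal transcript, the mean over all libraries was 1413 CPM for Rplp1, 793 for Rpl41, the smallest protein of the ribosome, 755 for Rpl10, 718 for Rps15 and 668 for Rplp0. At the low end stood Rpl24 at 1.09, Rpl13a at 8.28, Rps15a at 30.3, Rps20 at 48.0 and Rpl39 at 60.04 CPM per kilobase. Rps15a and Rps20 have principal transcripts of 5130 and 3706 bases in this annotation, which lowers their value per length. The order of the middle of the list was not tested.

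The low levels of Rpl24 and Rpl13a are uncertain. Rpl24 had 22 to 49 counts per library, and 47.0% of its exonic bases are shared on its strand with Gm28037, a row with 0 counts in all 9 libraries. Rpl13a, which also acts in the GAIT complex that silences inflammatory mRNAs, had 213 to 419 counts, and 35.4% of its exonic bases overlap other genes, with Gm45713 among them, also at 0 counts. How reads that fit more than 1 gene were handled is not given in the sources used here. Rpl13a measured 9.67, 12.3 and 10.7 CPM in the 2-month libraries, 8.56, 7.81 and 9.07 in those of 12 months and 5.58, 7.47 and 6.89 in those of 24 months, a change of -0.71 between 24 and 2 months (adjusted p = 0.00716 by edgeR), and with library totals -0.39 (adjusted p = 0.144). Some exonic overlap with another gene was present in 36 of the 77 core genes, over 50% of the bases in Rpl35 and Rpl23a. The 301 pseudogene rows named after ribosomal proteins held 0.477 to 0.645% of the counts of the family, so reads could be split between genes and their near copies, which makes each single value less certain.

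Shorter transcripts had the lower fold changes. Over the 75 core genes other than Rpl24 and Rpl13a, the Spearman correlation between the length of the principal transcript and the log2 fold change was 0.44 between 24 and 2 months, 0.31 between 12 and 2 months and 0.19 between 24 and 12 months. The genes share libraries and are not independent, and lengths also went with differences between replicates: the deviation of 2-month replicate 1 from the mean of its age had a Spearman correlation of 0.51 with length and that of replicate 2 of -0.40. The 38 genes of at most 827 bases had a median of -0.67 between 24 and 2 months, with 36 called lower, and the 37 longer ones a median of -0.56, with 33 called lower. The Spearman correlation with the level per length was -0.01 for 24 against 2 months.

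Of the paralogs, Rpl22l1 and Rps27l can take the place of Rpl22 and Rps27 in the ribosome, and Rps27l is a target of p53. Rpl22l1 measured 11.5, 14.97 and 10.5 CPM in the 2-month libraries, 8.94, 9.24 and 9.77 in those of 12 months and 7.20, 7.75 and 6.79 in those of 24 months, with all 3 ages apart, and fell between 24 and 2 months (log2 fold change -0.76, SE 0.14, adjusted p = 0.00466 by edgeR). Rps27l measured 85.8, 109.6 and 84.6 CPM in the 2-month libraries, 72.9, 61.5 and 73.2 in those of 12 months and 74.3, 66.3 and 56.6 in those of 24 months; its change of -0.51 passed (adjusted p = 0.0239), but not without 2-month replicate 2 (0.103) or 24-month replicates 2 (0.0618) or 3 (0.0932). Rpl7l1 measured 33.5, 34.5 and 36.2 CPM in the 2-month libraries, 31.6, 27.3 and 29.5 in those of 12 months and 29.02, 25.6 and 28.9 in those of 24 months, and its change of -0.32 (adjusted p = 0.0293 by edgeR) was lost without 2-month replicates 2 (0.0743) or 3 (0.107) or 24-month replicates 2 (0.123) or 3 (0.0581). With library totals none of the 3 passed (adjusted p = 0.065, 0.185 and 0.933).

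The retrogenes Rpl36al and Rps27rt and the binding protein gene Rps19bp1 did not pass between 24 and 2 months (adjusted p = 0.481, 0.605 and 0.0664 by edgeR), and their log2 fold changes were -0.32, -0.29 and -0.42. Rpl10l, a gene known from the testis, had 0 counts in all 9 libraries. Rpl39l, also known from the testis, had 0 to 8 counts per library. Rpl3l, which replaces Rpl3 in striated muscle, had 16 counts in 12-month replicate 3, the library with the most Acta1, and 0 to 2 counts in each other library.

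The share of a paralog in the counts of its pair does not depend on the scaling of the library. Rpl22l1 made up 8.47, 8.49 and 6.75% of the counts of Rpl22l1 and Rpl22 in the 2-month libraries, 6.62, 6.57 and 5.89% in those of 12 months, and 7.21, 7.26 and 7.10% in those of 24 months. The 12-month libraries were the lowest and did not overlap with the other ages. Rps27l made up 37.1, 32.97 and 29.4% of its pair in the 2-month libraries, 28.0, 24.8 and 27.0% in those of 12 months, and 35.3, 31.1 and 30.1% in those of 24 months, again with the 12-month libraries lowest. By a two-sided exact permutation test over the 1680 arrangements of the libraries into 3 ages, none of the 6 pairs tested differed among the ages after adjustment (adjusted p = 0.246 for both Rpl22l1 and Rps27l, up to 0.879 for Rpl3l); the unadjusted p was 0.0821 and 0.0679, and the smallest the design allows is 0.00357. Without 2-month replicate 3 the adjusted p of the Rpl22l1 pair was 0.0214.

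**Figure D5:**
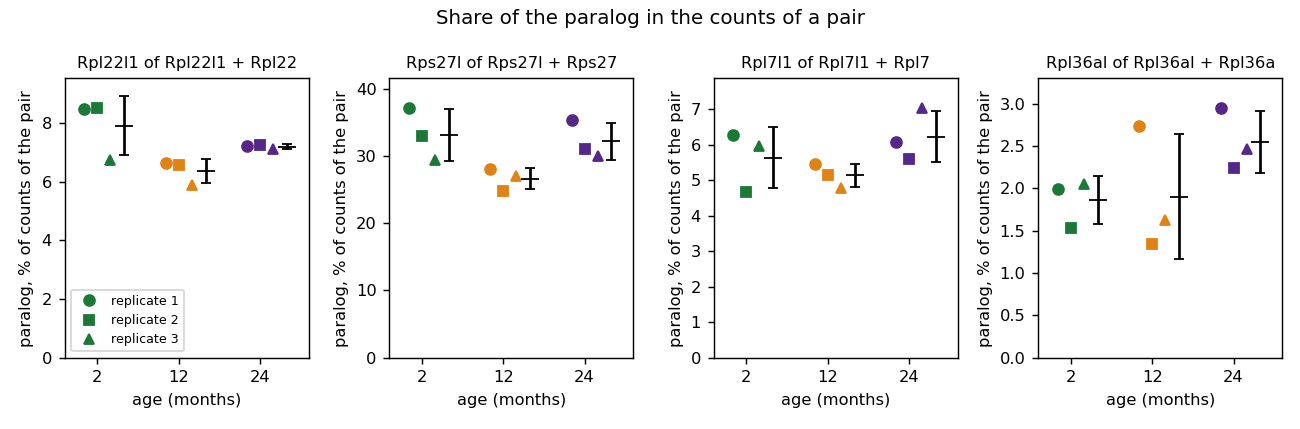
Share of the paralog in the summed counts of the paralog and its parent gene (%) in each library at 2, 12 and 24 months, for 4 pairs. Symbols are single libraries and bars the mean ± SD of 3; Rpl22l1 lies between 5.89 and 8.49% and Rps27l between 24.8 and 37.1%, with no difference among ages that passed the test.

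Ribosomal proteins whose symbols lie outside the rule include Fau, which is made as a fusion to a ubiquitin-like protein, and Rack1, a scaffold on the 40S head. Fau measured 156, 256 and 214 CPM in the 2-month libraries, 181, 202 and 227 in those of 12 months and 138, 145 and 125 in those of 24 months, and Rack1 432, 563 and 450.5 CPM in the 2-month libraries, 412, 424 and 463 in those of 12 months and 369.9, 334 and 309.6 in those of 24 months. Both fell between 24 and 2 months (log2 fold changes -0.61 and -0.51, adjusted p = 0.0238 and 0.0219 by edgeR), but not with library totals (0.158 and 0.204), nor without 2-month replicate 2 (0.103 and 0.0831) or 24-month replicate 3 (0.0839 and 0.0739). Fau also lost its call without 2-month replicate 3 (0.0728) and Rack1 without 24-month replicate 2 (0.0684).

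Mitochondrial ribosomal protein genes, whose products form a separate ribosome, were set beside the cytosolic ones. Of 77 tested, 19 fell and 0 rose between 24 and 2 months, where 7.55% of all tested genes were called lower, with a median log2 fold change of -0.27. With library totals 0 fell (3 at an unadjusted p under 0.05) and 1 rose, with a median of 0.04. Between 24 and 12 months 0 were called in either direction (median -0.06; at an unadjusted p under 0.05, 4 lower and 1 higher), and 0 with library totals (3 and 1). The 1421 other genes that averaged 36.0 CPM or more, a level that all core genes but Rpl24 and Rpl13a reach, had medians of -0.11 and -0.02 in these comparisons, with 298 and 40 called lower and 83 and 66 higher. With library totals the medians were 0.19 and -0.02, with 49 and 29 called lower and 272 and 38 higher. The difference between these groups and the core genes was not tested.

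Other mRNAs known for TOP motifs encode translation factors and further proteins, among them those of Npm1, Nap1l1, Hnrnpa1 and Tpt1. Of 16 such genes 4 fell and 0 rose between 24 and 2 months, beside the 7.55% called lower among all tested genes, with a median of -0.25, and with library totals 0 fell (1 at an unadjusted p under 0.05) and 1 rose. Those that fell were Eef1b2 (elongation factor 1 beta), Pabpc1 (the cytoplasmic poly(A)-binding protein), Tpt1 and Btf3, with log2 fold changes of -0.55, -0.50, -0.50 and -0.41. Of these, Eef1b2 kept its call in every refit without 1 library (adjusted p up to 0.0332 by edgeR). Without 2-month replicate 2 the adjusted p of Pabpc1, Tpt1 and Btf3 was 0.0671, 0.128 and 0.069, without 2-month replicate 3 0.0713, 0.0718 and 0.0669, and without 24-month replicate 3 0.0695, 0.104 and 0.0708. Pabpc1 also lost its call without 24-month replicate 2 (0.0878), and Tpt1 kept its call only without 2-month replicate 1 (0.0297; 0.0523 to 0.0725 in the other 5 refits). The elongation factors Eef1a1 and Eef2 changed by -0.24 and -0.25 and did not pass (adjusted p = 0.306 and 0.314 by edgeR). Between 24 and 12 months only Eef1b2 of the 16 was called, with -0.45 (adjusted p = 0.041 by edgeR). That call was lost in 7 of the 9 refits without 1 library (0.0626 to 0.157), all but those without 2-month replicate 1 or 2.

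Of 30 ribosome biogenesis genes 11 fell and 0 rose between 24 and 2 months (7.55% of all tested genes were lower), with a median of -0.37. With library totals the median was -0.06. Only Gar1 and Nhp2 of the 11 kept the call in every refit without 1 library, and Pes1 lost it in 6 refits. Gar1, a protein of the particles that modify uridines of ribosomal RNA, measured 10.36, 12.4 and 11.5 CPM in the 2-month libraries, 9.30, 11.5 and 10.2 in those of 12 months and 6.57, 7.31 and 5.76 in those of 24 months, with all 24-month libraries lowest. It fell between 24 and 2 months (-0.80, adjusted p = 0.00284 by edgeR), and was the 1 gene of the list that also passed with library totals (0.0481). Between 24 and 12 months it was again the only gene called, with -0.66 (adjusted p = 0.0167), a call lost with library totals (0.0504) and without 12-month replicate 2 (0.076) or 24-month replicate 3 (0.0642). Of 12 genes of RNA polymerase I and its factors 1 fell between 24 and 2 months, a share near the 7.55% of all tested genes. It was Taf1d (-0.38, adjusted p = 0.0248, and 0.0609 to 0.0992 without 2-month replicate 2 or 3 or 24-month replicate 1 or 3), and 0 did so with library totals (0 at an unadjusted p under 0.05).

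Of 17 tested genes of growth control 1 fell and 0 rose between 24 and 2 months, where 7.55% of all tested genes were called lower. The 1 gene was Larp1, whose product binds TOP mRNAs (-0.55, adjusted p = 0.0255 by edgeR). It did not pass with library totals (0.152) or without 2-month replicate 2 (0.102), 2-month replicate 3 (0.0906) or 24-month replicate 3 (0.0921). Sesn2, an inhibitor of mTOR complex 1, measured 6.25, 8.40 and 6.76 CPM in the 2-month libraries, 5.71, 5.38 and 4.98 in those of 12 months and 11.03, 8.28 and 10.2 in those of 24 months. It rose between 24 and 12 months (0.88, adjusted p = 0.00804 by edgeR), where 2.79% of all tested genes were called higher. Every 24-month library except replicate 2 lay above all others, and Sesn2 was called in each refit without 1 library. With library totals Sesn2 was called in that comparison too (0.0205). Under the same scaling 2 genes of the list, Sesn2 and Mtor, rose between 24 and 2 months (0.0111 and 0.0271), where 17.5% of all tested genes did. Between 12 and 2 months 1 gene of the list, the mTOR inhibitor Deptor, fell with TMM (-0.70, adjusted p = 0.0182 by edgeR), but not with library totals (0.0655) or without 2-month replicate 2 (0.0873) or 3 (0.0676) or 12-month replicate 2 (0.0943). With library totals 1 gene rose in that comparison, Mlst8, a subunit of the mTOR complexes (adjusted p = 0.0403 by edgeR, and 0.141 with TMM). Among all tested genes 2.52% were called lower there with TMM and 10.8% higher with library totals. The counts of 1 or 2 calls per comparison are not read as a result about the list. Mtor changed by 0.40 between 24 and 12 months with TMM and Myc by -0.42 (adjusted p = 0.0654 and 0.0841), and neither passed.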

How the data were processed

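Whole-number counts per Ensembl gene for 9 libraries were deposited by the authors; cutadapt, STAR, HTSeq and DESeq2 with GRCm38 are listed in the submitters' processing notes, and the strand setting and read filters are not stated there. The authors' second deposited table holds log2 values, which equal log2 of the count times a factor per library plus 1 in 100% of entries (tolerance 1e-06), and was used only for that check.

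Symbols, lengths and exonic overlaps came from GENCODE M21. Genes passing edgeR's filterByExpr (minimum count 10; 14958 genes) were fitted with edgeR 4.0.16 (R 4.3.3; glmQLFit and glmQLFTest, TMM scaling, 1 model of the 3 ages, 6 residual degrees of freedom, common biological coefficient of variation 21.2%), with Benjamini-Hochberg adjustment across the tested genes and calls under 0.05. CPM use TMM-scaled totals, and levels per length use the APPRIS principal transcript. Paralog shares were tested by exact permutation of log2 ratios of counts with 0.5 added. Alternatives were library totals, RLE and upper quartile scaling, other filters, the replicate number as a block, left-out libraries, a Bpifa2 covariate, DESeq2 1.42.0 and limma 3.58.1 voom. The scripts were tested on simulated data.

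The labels give no batch. Replicate libraries differed by far more than sampling noise. Counting error is small at these totals, so the 3 libraries per age limit the precision. Members and gene lists were chosen with earlier results of these data known. Named were the paralogs, the 5 largest called changes and the 3 values farthest from the core median on each side per comparison, the 5 highest and lowest levels per length, a fixed set of core genes by role, Fau and Rack1, and up to 3 called genes of each other list; Rpl8, Rpl11, Rpl17, Rpl19, Rpl26, Rps15, Rps23, Rps26 and the remaining genes of short lists were added after their values were seen.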

Additional observations from a re-analysis of the deposited data

How the results depend on the processing

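All core genes tested had negative values in 24 of 24 settings between 24 and 12 months, and in 23 of 24 between 24 and 2 months, the exception being library totals; with a minimum count of 50, 76 were tested. The number called was less stable. With library totals it was 1 higher between 12 and 2 months, 19 lower between 24 and 2 months and 41 members over the 3 ages, with medians of 0.16 between 12 and 2 months, the opposite sign to TMM, and -0.32 between 24 and 2 months. Between 12 and 2 months 1 core gene was lower without a filter and 2 with DESeq2. Without the 3 libraries with the most Bpifa2 there were 4 core genes lower between 24 and 2 months, 0 between 24 and 12 months, and 0 members over the ages (57 at an unadjusted p under 0.05); without the 2 with the most Acta1 the last 2 counts were 0 and 33. Between 24 and 12 months 13 were lower with TMM computed without the 10 most abundant genes, 46 with no filter, 13 with the Bpifa2 covariate, 58 with DESeq2 and 31 with limma voom. At an adjusted p under 0.01 there were 35 lower between 24 and 2 months and 1 between 24 and 12 months. Leaving out 1 library gave 0 to 2 lower between 12 and 2 months, 43 to 73 between 24 and 2 months, 1 to 37 between 24 and 12 months and 26 to 71 members over the ages, and adjusted p from 0.0214 to 0.504 for the Rpl22l1 pair. The cause of these shifts was not tested; refits without libraries have fewer samples. With the replicate block, 60 core genes were lower between 24 and 2 months, 6 between 24 and 12 months and 37 members over the ages. The correlations between the deviations of same-numbered libraries were -0.16 to 0.06, and those of differently numbered libraries -0.19 to 0.23. With 3 libraries per age these values cannot show whether the numbers pair the samples. The 3 libraries per age, and for Rpl24 its 22 to 49 counts, limit what could be called.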
